A study of Homo sapiens with 4 samples.

Results

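MALAT1, TALAM1, NEAT1, KCNQ1OT1, RN7SL1, RN7SL2, RN7SK, RMRP and RPPH1 are long non-coding RNAs of the nucleus and small structural RNAs made by RNA polymerase III. These 9 genes, of 52402 gene symbols in the count tables, were taken by name as abundant nuclear and polymerase III RNAs. They were chosen by name with the knockout over mock differences of the same libraries in view, which makes the values below a description with no test. The study sequenced RNA from cultures labelled as SKOV3 and OVCAR3, human ovarian cancer cell lines of epithelial type. Total RNA was extracted, but it is unknown how the libraries were then enriched for messenger RNA. The part of that step in the levels of the 9 RNAs was not tested. Each cell line was present as a control (mock) and as a knockout (KO), in which CRISPR-Cas9 was directed at env of HERV-K119, a retrovirus copy carried in the human genome. About 18 h after transfection, all 4 groups, mock included, received hygromycin at 100 μg/mL for 2 days. Each group held 1 library, so no difference has a replicate check and no p-value is given. The labels do not say whether a knockout culture came from 1 clone or from a pool, and the HERV-K119 locus itself was not analysed here.

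The long non-coding RNAs work in the nucleus. MALAT1 gathers in nuclear speckles, where splicing factors are stored, and TALAM1 is transcribed from the opposite strand of the MALAT1 locus. NEAT1 is the scaffold of paraspeckles, nuclear bodies built from RNA-binding proteins, and KCNQ1OT1 is the imprinted antisense transcript that silences neighbouring genes on the paternal chromosome. The small RNAs are parts of ribonucleoproteins. RN7SL1 and RN7SL2 encode the RNA of the signal recognition particle, which delivers secretory proteins to the endoplasmic reticulum, and RN7SK encodes the 7SK RNA, which holds the elongation kinase P-TEFb in an inactive complex. RMRP is the RNA of RNase MRP, an enzyme of ribosomal RNA processing, and RPPH1 is the RNA of RNase P, which trims the leader of precursor tRNAs.

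RN7SL1 and RN7SL2 are so alike that reads can often not be assigned to either gene. Their GENCODE 29 transcripts on GRCh38 hold 299 and 300 bases. Their identity was 98.3%. Of the 250 windows of 50 bases in RN7SL1, 158 (63.2%) were also found unchanged in RN7SL2, so a short read from such a window matches both genes equally well. How the authors' counting treated such reads is not given in the sources used here, and the sum of both genes is therefore given beside each.

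RN7SK is shown for its GATC motifs, since the GAUC repeats near the 5′ end of 7SK RNA are known as the contact of HEXIM proteins, the inhibitors of P-TEFb. The first 100 bases of the GENCODE 29 transcript, chr6:52995621-52995720 on the plus strand of GRCh38, are printed, and capitals mark GATC, which reads the same on both strands.
RN7SK: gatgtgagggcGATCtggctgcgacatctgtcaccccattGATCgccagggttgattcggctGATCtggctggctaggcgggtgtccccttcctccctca
The whole transcript of 328 bases held 3 GATC motifs, all within this stretch. Among 4117 GENCODE transcripts of 300 to 350 bases, 65.5% held at least 1 GATC and 10.0% held at least 3. A match is a description of the letters and was not tested as a binding site.

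MALAT1 and TALAM1 share most of their bases on opposite strands. In the RefSeq annotation of GRCh38.p14, MALAT1 spans 8779 bases (chromosome 11, 65497738 to 65506516) and TALAM1 8121 bases (chromosome 11, 65499312 to 65507432), with an overlap of 7205 bases, which is 82.1% of MALAT1 and 88.7% of TALAM1. A stretch of 60 bases inside the overlap, chr11:65506410-65506469 on GRCh38, shows what a read from either strand would look like. Capitals mark a run of 5 A on the MALAT1 strand and the same bases as T on the TALAM1 strand.
MALAT1 strand: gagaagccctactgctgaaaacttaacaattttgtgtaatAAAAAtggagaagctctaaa
TALAM1 strand: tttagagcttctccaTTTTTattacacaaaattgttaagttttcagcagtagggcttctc
The library kit keeps the strand of the RNA, but the strand setting of the counting is not given in the sources used here. Reads of MALAT1 and TALAM1 can therefore not be told apart with certainty in the overlap, and their sum is given as well.

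**Figure D1:**
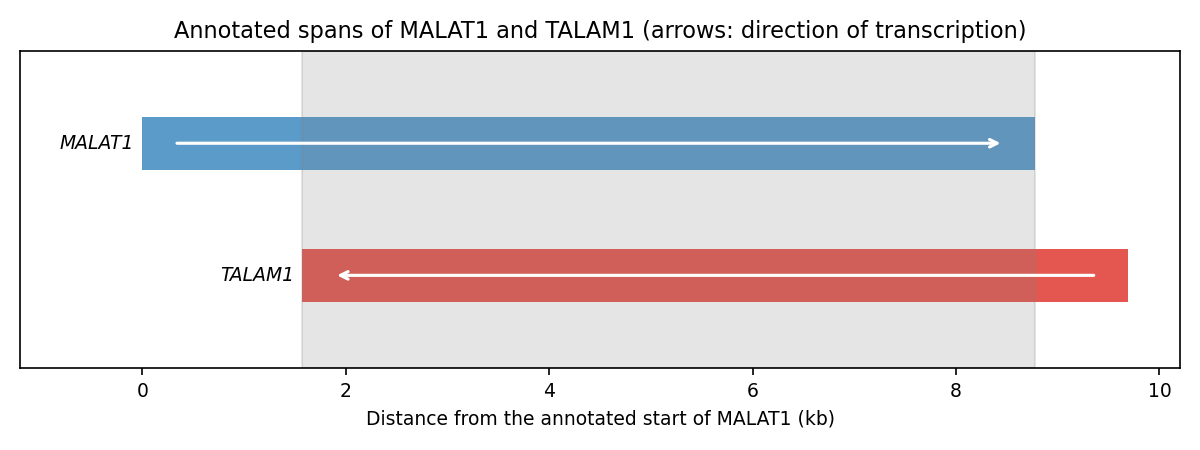
Annotated spans of MALAT1 and TALAM1 (RefSeq, GRCh38.p14), with the distance from the annotated start of MALAT1 in kb on the x axis; arrows give the direction of transcription and the grey area is the overlap. The overlap covers 7205 bases and leaves 1574 bases of MALAT1 and 916 bases of TALAM1 outside it.

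The libraries held between 15145483 and 22057693 counts. Levels below are CPM, counts scaled to library size by TMM (trimmed mean of M values) factors, and brackets give exact 95% intervals of counting error, which does not include differences between cultures. Reads carried no molecular identifiers, so repeated copies of a molecule are counted as separate reads. The library labelled OVCAR3 KO stood apart from the other 3. Mitochondrial rows took 21.9% of its counts, against 5.16% to 5.93% elsewhere, and 25743 symbols had counts, against 21377 to 22736 elsewhere. Epithelial markers were present throughout, with EPCAM between 268 and 352 CPM, but the keratins and CDH1 were lower in OVCAR3 KO than in OVCAR3 mock. KRT19 had 2378 CPM in OVCAR3 mock and 401 in OVCAR3 KO, KRT8 3035 and 703.5, KRT18 1459.9 and 562, and CDH1 115 and 31.5, and their part in the results below was not tested. The leukocyte markers PTPRC and CD3E were at 0. Markers of the lines were divided. MUC16, known from OVCAR3, had 1 count in each SKOV3 library and 45 and 91 counts in OVCAR3 mock and KO. The direction is as the labels have it, but the level in OVCAR3 mock and KO was low, at 2.74 and 6.18 CPM. Against the labels, CDKN2A, known to be deleted in SKOV3, had 90.6 and 91.2 CPM in the libraries labelled SKOV3, and WT1, known to be present in OVCAR3, had 0 counts in all 4 libraries. ERBB2, known to be amplified in SKOV3, had 58.5 CPM in SKOV3 mock and 55.7 in SKOV3 KO. Its level was higher in OVCAR3 mock, at 73.3 CPM, and lower in OVCAR3 KO. The line names below therefore stand for the labels. In bulk RNA, a change in the number of cells that make a transcript and a change in the amount per cell cannot be told apart.

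The 9 RNAs were far higher in the OVCAR3 KO library than in its mock, whereas in the SKOV3 KO library 7 of them were below the mock level. In the OVCAR3 pair, 9 of 9 were at least 2-fold higher in the knockout library (log2 ratio of at least 1 with a prior count of 2, and at least 1 CPM in 1 of the libraries). In that pair 22.5% of 15560 measured genes were higher by this rule and 15.4% were lower, or 3504 and 2390 genes. That split depends on the scaling and was 2817 and 3115 with DESeq2 size factors, 2594 and 3417 with TMM over all rows and 4600 and 1674 with upper quartile factors, under each of which the 9 RNAs stayed at least 2-fold higher. The SKOV3 pair had 0 of 9 at least 2-fold higher and 2 of 9, RN7SL1 and RN7SL2, at least 2-fold lower, where 0.799% of 13524 measured genes were higher and 0.739% were lower. The median log2 ratio of the 9 was 2.93 in the OVCAR3 pair, against 0.16 over all measured genes, and -0.46 in the SKOV3 pair, against 0.01. Together the 9 RNAs took 0.205% of the counts in SKOV3 mock, 0.142% in SKOV3 KO, 0.115% in OVCAR3 mock and 0.761% in OVCAR3 KO. Each of the 9 had its highest level in OVCAR3 KO, and without that library the levels of 7 of the 9 were highest in SKOV3 mock. The exceptions were RN7SK, which was then highest in SKOV3 KO, and RMRP, which was then highest in OVCAR3 mock.

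**Figure D2:**
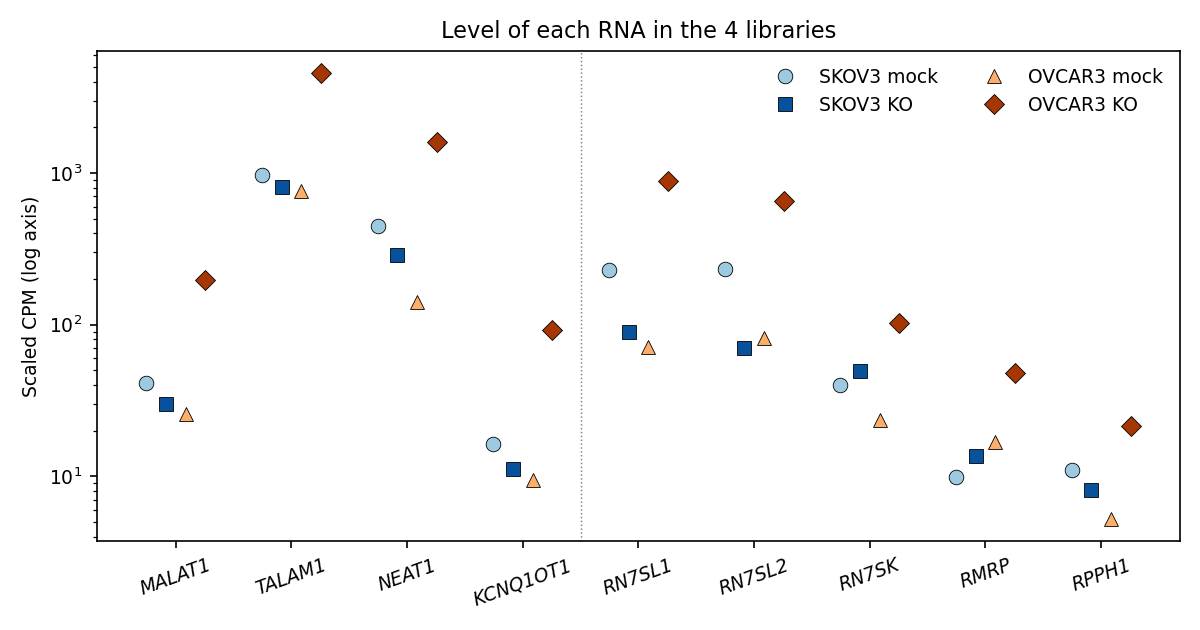
Scaled CPM (y axis, log scale) of each of the 9 RNAs in the 4 libraries, 1 point per library, with the long non-coding RNAs left of the dotted line and the polymerase III RNAs right of it. OVCAR3 KO is the highest point for each RNA, from 21.5 CPM for RPPH1 to 4561 CPM for TALAM1.

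NEAT1 (chromosome 11, 65422798 to 65445540) had 10061 counts in SKOV3 mock, 4510 in SKOV3 KO, 2335 in OVCAR3 mock and 23753 in OVCAR3 KO, or 446, 286, 142 and 1612 CPM. It was the long non-coding RNA with the largest log2 ratio in the OVCAR3 pair, 3.50 (3.44 to 3.57), an 11.3-fold higher level in the knockout library. Of the 15560 genes measured in that pair, 383 had a larger ratio than NEAT1. The ratio was -0.64 (-0.69 to -0.59) in the SKOV3 pair, short of the size rule, and 327 of 13524 genes had a smaller one. No interval of neighbouring levels in the order OVCAR3 KO, SKOV3 mock, SKOV3 KO and OVCAR3 mock held 0.

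KCNQ1OT1 (chromosome 11, 2608328 to 2699994) had far fewer reads for its length. The counts were 370 in SKOV3 mock, 176 in SKOV3 KO, 155 in OVCAR3 mock and 1350 in OVCAR3 KO, or 16.4, 11.2, 9.43 and 91.6 CPM. Per kb of annotated span, NEAT1 had between 6.25 and 70.9 CPM and KCNQ1OT1 between 0.103 and 1.00 CPM. The log2 ratio of KCNQ1OT1 was 3.26 (3.04 to 3.53) in the OVCAR3 pair, a 9.71-fold higher level, and -0.55 (-0.82 to -0.29) in the SKOV3 pair. Its lowest levels, in SKOV3 KO and OVCAR3 mock, were not distinguishable by counting error, with a log2 ratio of 0.24 (-0.08 to 0.56) between them. KCNQ1OT1 made up 3.55% (3.20 to 3.92) of the summed KCNQ1OT1 and NEAT1 counts in SKOV3 mock and 3.76% (3.23 to 4.34) in SKOV3 KO. Its share was 6.22% (5.31 to 7.25) in OVCAR3 mock and 5.38% (5.10 to 5.66) in OVCAR3 KO. The intervals of mock and knockout overlapped in each pair, while the share was higher in OVCAR3 mock than in SKOV3 mock beyond counting error.

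At the MALAT1 locus most counts stood in the TALAM1 row. MALAT1 had 933 counts in SKOV3 mock, 473 in SKOV3 KO, 425 in OVCAR3 mock and 2922 in OVCAR3 KO, or 41.3, 30.0, 25.9 and 198 CPM. TALAM1 had 22069, 12762, 12492 and 67196 counts in the same order, or 977, 809, 760 and 4561 CPM. Per kb of annotated span, TALAM1 stood at 120.4, 99.7, 93.6 and 562 CPM and MALAT1 at 4.71, 3.42, 2.95 and 22.6 CPM. TALAM1 thus took 96.0% of the counts of the pair over all libraries. Among 543 other pairs of a gene and its antisense row with the suffix AS1 and at least 400 summed counts, the antisense row was the larger in 18, and its median share of the pair was 0.889%. The strand from which the reads in the TALAM1 row came was not tested.

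Both rows of the locus had similar ratios. MALAT1 had a log2 ratio of 2.93 (2.79 to 3.09) in the OVCAR3 pair, 7.67-fold higher in the knockout library, and -0.46 (-0.62 to -0.30) in the SKOV3 pair. TALAM1 had 2.58 (2.56 to 2.61) and -0.27 (-0.30 to -0.24). The sum of both rows had 23002, 13235, 12917 and 70118 counts, 6.05-fold higher in the knockout library of the OVCAR3 pair with a log2 interval of 2.57 to 2.62, and a log2 ratio of -0.28 (-0.31 to -0.25) in the SKOV3 pair. MALAT1 made up 4.06% (3.80 to 4.32) of the summed counts in SKOV3 mock, 3.57% (3.26 to 3.90) in SKOV3 KO, 3.29% (2.99 to 3.61) in OVCAR3 mock and 4.17% (4.02 to 4.32) in OVCAR3 KO. This share was higher in OVCAR3 KO than in OVCAR3 mock beyond counting error, while the intervals of OVCAR3 KO and SKOV3 mock overlapped.

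RN7SL1 and RN7SL2, the RNA genes of the signal recognition particle, were the only members past the size rule in both pairs, in opposite directions. RN7SL1 (chromosome 14, 49586580 to 49586878) had 5141 counts in SKOV3 mock, 1414 in SKOV3 KO, 1178 in OVCAR3 mock and 13085 in OVCAR3 KO, or 228, 89.7, 71.7 and 888 CPM. RN7SL2 (chromosome 14, 49862551 to 49862849) had 5268, 1103, 1343 and 9593 counts in that order, or 233, 70.0, 81.7 and 651 CPM. Both genes were low in SKOV3 KO and OVCAR3 mock, intermediate in SKOV3 mock and high in OVCAR3 KO. The OVCAR3 log2 ratio was 3.63 (3.54 to 3.72) for RN7SL1, a 12.4-fold higher level, and 2.99 (2.91 to 3.08) for RN7SL2, a 7.97-fold higher level. Its SKOV3 counterpart was -1.34 (-1.43 to -1.26) for RN7SL1 and -1.74 (-1.83 to -1.64) for RN7SL2, levels 2.54-fold and 3.34-fold lower in the knockout library. Only 23 of the 13524 genes measured in the SKOV3 pair had a smaller ratio than RN7SL2, and 50 had a smaller one than RN7SL1.

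The sum of the near-identical genes does not depend on how shared reads were split between them. The sum would still lack shared reads that were left out of the counting or assigned to a pseudogene copy. It held 10409 counts in SKOV3 mock, 2517 in SKOV3 KO, 2521 in OVCAR3 mock and 22678 in OVCAR3 KO, or 461, 159.6, 153 and 1539 CPM. Its log2 ratio was -1.53 (-1.59 to -1.47) in the SKOV3 pair and 3.33 (3.27 to 3.39) in the OVCAR3 pair, 10.03-fold higher in the knockout library. RN7SL1 made up 49.4% (48.4 to 50.4) of the sum in SKOV3 mock, 56.2% (54.2 to 58.1) in SKOV3 KO, 46.7% (44.8 to 48.7) in OVCAR3 mock and 57.7% (57.1 to 58.3) in OVCAR3 KO. The share was higher in the knockout than in the mock library of both pairs beyond counting error. Whether the share follows the RNAs or the assignment of reads was not tested.

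**Figure D3:**
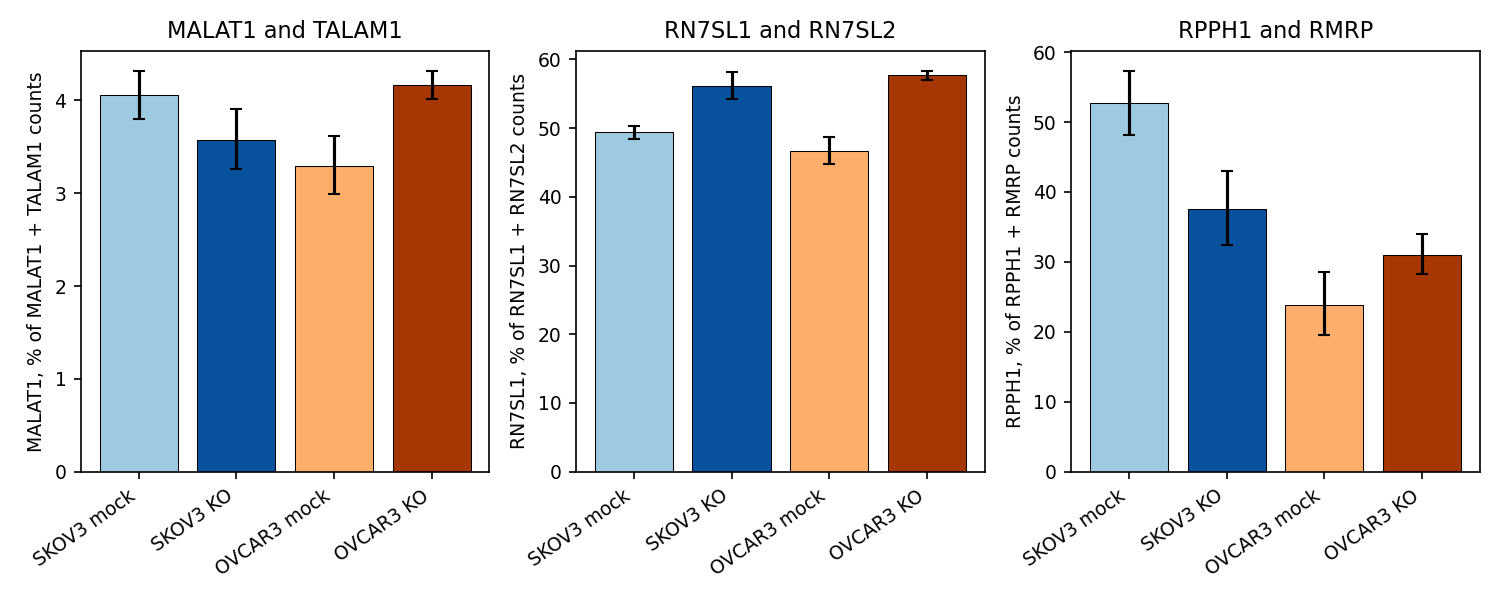
Share of MALAT1 in MALAT1 plus TALAM1 counts, of RN7SL1 in RN7SL1 plus RN7SL2 counts and of RPPH1 in RPPH1 plus RMRP counts (y axes, percent) in the 4 libraries; bars are the shares and whiskers the exact 95% binomial intervals. The RN7SL1 share is above 56% in both knockout libraries and below 50% in both mock libraries.

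The genome holds many pseudogene copies of these RNAs, and their rows held few reads. The 629 rows of RN7SL pseudogene copies summed to 85 counts in SKOV3 mock, 59 in SKOV3 KO, 48 in OVCAR3 mock and 288 in OVCAR3 KO. Their summed log2 ratio was -0.01 (-0.51 to 0.49) in the SKOV3 pair, where the 2 functional genes were lower, and 2.69 (2.30 to 3.21) in the OVCAR3 pair. The copy with the most counts, RN7SL4P, had 24, 7, 8 and 58 counts. Its log2 ratio was -1.08 (-2.72 to -0.001) in the SKOV3 pair, past the size rule on few counts. In the OVCAR3 pair the ratio of RN7SL4P was 2.75 (1.94 to 4.29). Of the 246 windows of 50 bases in RN7SL4P, 143 (58.1%) were also found unchanged in RN7SL2. With the copies added, the signal recognition particle RNA had log2 ratios of -1.51 and 3.32. The 293 rows of RN7SK copies held 18, 9, 7 and 38 counts, and the only RMRP pseudogene row held none, which allows up to 3 counts, or 0.133 to 0.204 CPM.

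RN7SK (chromosome 6, 52995620 to 52995951) had 903 counts in SKOV3 mock, 776 in SKOV3 KO, 388 in OVCAR3 mock and 1503 in OVCAR3 KO, or 40.0, 49.2, 23.6 and 102 CPM. The log2 ratio was 2.11 (1.95 to 2.28) in the OVCAR3 pair, a 4.32-fold higher level, with 1698 of 15560 genes above it. The SKOV3 value was 0.30 (0.16 to 0.44), above 0 in contrast to the long non-coding RNAs and the RN7SL genes, and short of the size rule. With the RN7SK copies added, the ratios were 0.29 and 2.12.

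RMRP and RPPH1 are the RNA subunits of related enzymes that share most of their proteins. RMRP (chromosome 9, 35657750 to 35658019) had 223 counts in SKOV3 mock, 214 in SKOV3 KO, 275 in OVCAR3 mock and 704 in OVCAR3 KO, or 9.88, 13.6, 16.7 and 47.8 CPM. RPPH1 (chromosome 14, 20343071 to 20343411) had 249, 129, 86 and 317 counts, or 11.0, 8.18, 5.23 and 21.5 CPM. OVCAR3 KO was highest for both, but the order of the remaining libraries was reversed between them. The OVCAR3 log2 ratio was 1.51 (1.31 to 1.72) for RMRP, the smallest of the 9, and 2.02 (1.69 to 2.40) for RPPH1, 2.85-fold and 4.11-fold higher levels. The SKOV3 values were 0.45 (0.18 to 0.74) for RMRP and -0.43 (-0.75 to -0.12) for RPPH1, neither past the size rule. RPPH1 made up 52.8% (48.1 to 57.3) of the summed counts in SKOV3 mock, 37.6% (32.5 to 43.0) in SKOV3 KO, 23.8% (19.5 to 28.6) in OVCAR3 mock and 31.0% (28.2 to 34.0) in OVCAR3 KO. The share was thus lower in the knockout library of the SKOV3 pair and higher in that of the OVCAR3 pair, where the intervals overlapped slightly.

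**Figure D4:**
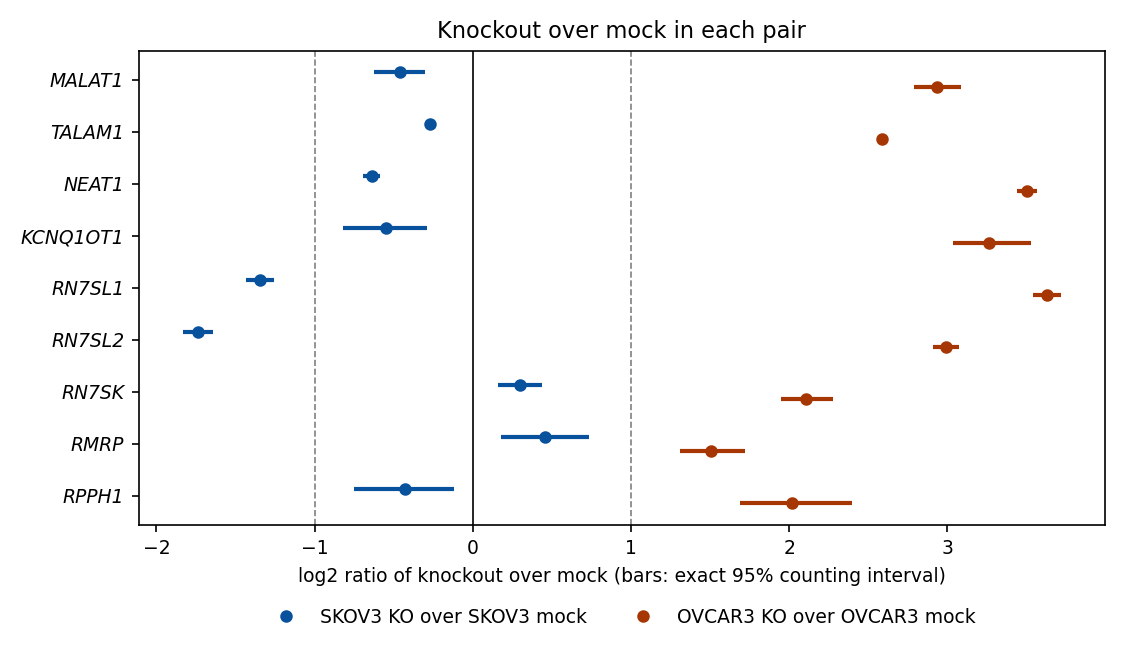
Log2 ratio of knockout over mock (x axis) for each of the 9 RNAs, in blue for the SKOV3 pair and in orange for the OVCAR3 pair, with bars for the exact 95% counting interval and dashed lines at the size rule. The OVCAR3 points lie between 1.51 and 3.63, and the SKOV3 points between -1.74 and 0.45.

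The mock libraries also differed in these RNAs. These comparisons share their libraries with those above, so they add no independent samples. In OVCAR3 mock over SKOV3 mock, 0 of 9 were at least 2-fold higher and 4 were at least 2-fold lower, where 9.47% of 13721 measured genes were higher and 5.52% were lower. The 4 were NEAT1 at -1.65 (-1.71 to -1.58), RN7SL1 at -1.67 (-1.76 to -1.58), RN7SL2 at -1.51 (-1.60 to -1.43) and RPPH1 at -1.06 (-1.45 to -0.72). RMRP was the only member with a value above 0, 0.75 (0.50 to 1.02). In OVCAR3 KO over SKOV3 KO, 9 of 9 were at least 2-fold higher, where 25.3% of 15616 measured genes were higher and 14.5% were lower. The ratios ran from 1.05 (0.93 to 1.18) for RN7SK to 3.31 (3.23 to 3.39) for RN7SL1, and RN7SK was below 1 under 3 of the 8 other scaling and prior settings.

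The OVCAR3 KO library was higher in non-coding RNA beyond the 9 genes. In the OVCAR3 pair, without the 9 members, 685 of 1079 long non-coding RNAs were at least 2-fold higher and 33 were lower, with a median log2 ratio of 1.67. Of 14 other small structural RNAs 12 were higher and none was lower, with a median of 2.79. Of 692 pseudogenes 446 were higher and 17 were lower, with a median of 1.68. Protein-coding genes had a median of -0.02, with 1587 of 12166 higher and 2222 lower. Rows that pass the CPM filter only in OVCAR3 KO enter these counts because they are high there. The counts and medians of these classes therefore depend in part on the filter. In the SKOV3 pair 13 of 564 long non-coding RNAs were higher and 20 were lower, with a median of -0.01. Of 7 small structural RNAs measured there, 0 were past the size rule, and their median was -0.31. The 37 mitochondrial rows, summed, had a log2 ratio of 2.00 in the OVCAR3 pair and 0.18 in the SKOV3 pair, and their part in the ratios of the 9 RNAs was not tested.

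Other small RNAs gave few reads. Of 38 named small nuclear, Y, vault, small Cajal body and related RNAs, 4 were measured in the SKOV3 pair. In the OVCAR3 pair 5 were measured, and 5 of 5 were at least 2-fold higher. Over the class of small structural RNAs outside the members, 12 of 14 were higher in that pair. The share over all measured genes was 22.5%. SNORD3A, the U3 small nucleolar RNA of ribosomal RNA processing, had 15.8 CPM in SKOV3 mock, 10.02 in SKOV3 KO, 4.57 in OVCAR3 mock and 33.8 in OVCAR3 KO, with a log2 ratio of 2.86 (2.54 to 3.26) in the OVCAR3 pair. SCARNA2, a guide RNA of Cajal bodies, had 2.21, 2.60, 2.31 and 14.3 CPM, with a ratio of 2.57 (2.12 to 3.16). The others were RNU2-1 at 1.60, RNU4-2 at 2.72 and TERC, the RNA of telomerase, at 3.90, named after their values were seen. RNU4-2 was below 1 CPM in both SKOV3 libraries. SNORD3A and SCARNA2 were above 1 CPM in OVCAR3 mock too, whereas the OVCAR3 mock levels of RNU2-1, RNU4-2 and TERC are not given here. A row that reaches 1 CPM only in OVCAR3 KO enters the 5 because it is high there. The 463 small nucleolar RNA rows together held 664, 363, 223 and 1259 counts, with log2 ratios of -0.35 (-0.54 to -0.17) in the SKOV3 pair and 2.64 (2.45 to 2.87) in the OVCAR3 pair. The 1225 rows of U6 RNA, another polymerase III product, held 1, 1, 1 and 7 counts, and 79 rows of Y RNA held 3, 7, 2 and 6. The 90 clustered histone rows, many of whose messengers lack a poly(A) tail, held 2713, 2314, 2243 and 1247 counts, with a log2 ratio of -0.69 (-0.79 to -0.59) in the OVCAR3 pair and 0.29 (0.21 to 0.37) in the SKOV3 pair. The histone rows were added after their values were seen, and how the libraries were enriched for messenger RNA is not given in the sources used here.

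Genes whose products act with the 9 RNAs or transcribe them, or that lie beside them, were summarised from 10 lists of 113 genes. In the SKOV3 pair 0 of 105 measured list genes were past the size rule in either direction, and the median log2 ratio was 0.05. In the OVCAR3 pair 9 of 109 were at least 2-fold higher and 24 were lower, with a median of 0.00, where 22.5% of all measured genes were higher, 15.4% were lower and the median was 0.16. With DESeq2 size factors 5 were higher and 32 lower, with TMM over all rows 4 and 34, and with upper quartile factors 15 and 18, so the counts of each list below depend on the scaling too. The 9 RNAs themselves had a median of 2.93 there.

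**Figure D5:**
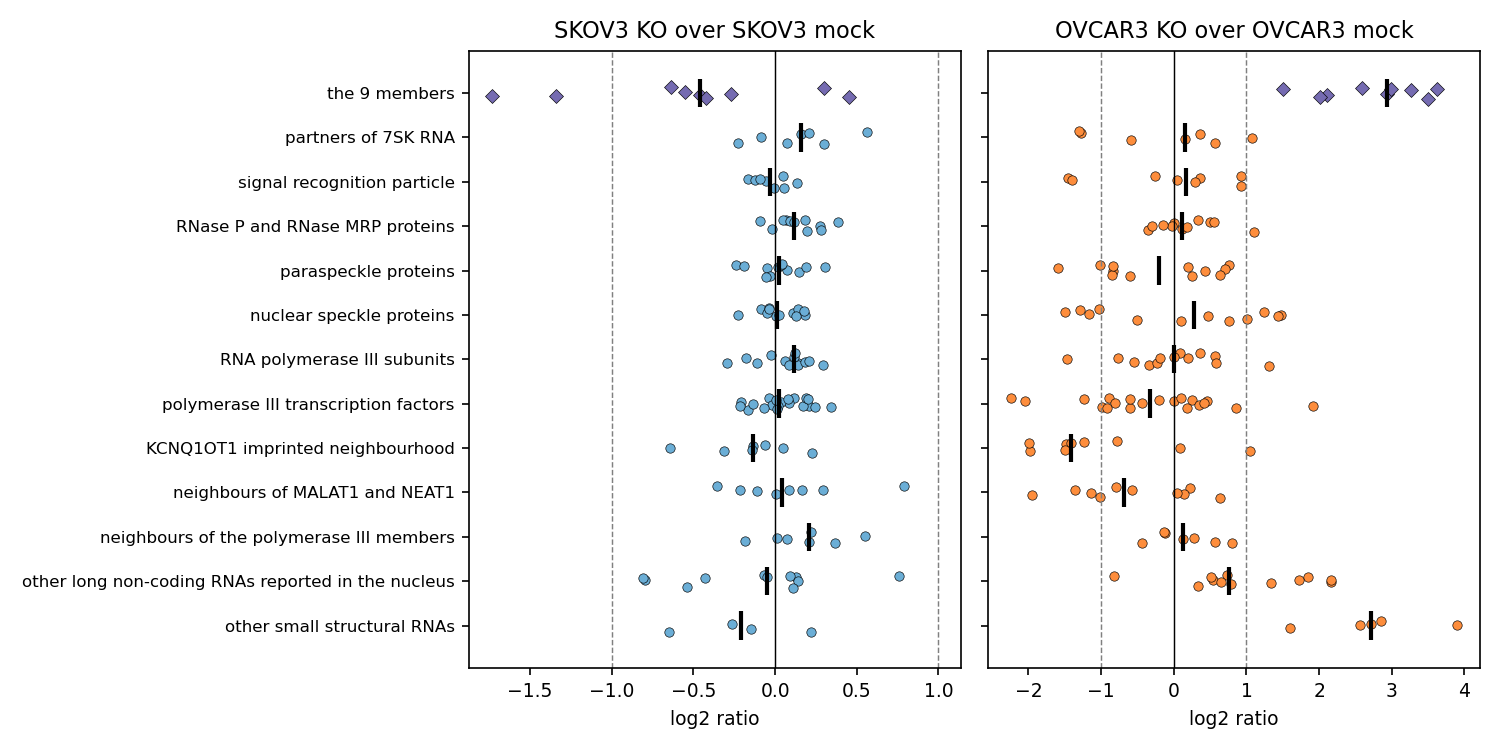
Log2 ratio of knockout over mock (x axes) of the 9 RNAs (diamonds) and of the measured genes of each list (points), in the SKOV3 pair (left) and the OVCAR3 pair (right), with black bars for medians and dashed lines at the size rule. In the OVCAR3 panel the 9 RNAs have a median of 2.93, and the medians of the partner, machinery and neighbour lists lie between -1.41 and 0.28.

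Of 7 partners of 7SK RNA, 1 was higher and 2 were lower in the OVCAR3 pair. CDK9, the kinase of P-TEFb, had 72.2 CPM in OVCAR3 mock and 29.3 in OVCAR3 KO, a log2 ratio of -1.30 (-1.46 to -1.14). MEPCE, which caps 7SK RNA, had -1.28 (-1.52 to -1.06), and CCNT2, a cyclin partner of CDK9, had 1.08 (0.94 to 1.23). HEXIM2, an inhibitor that binds through 7SK RNA, had -0.58 (-0.91 to -0.27), short of the size rule. The partners thus lay on both sides of 0 while the RNA was 4.32-fold higher. Of 8 proteins of the signal recognition particle and its receptor, 0 were higher and 2 were lower: SRP68 at -1.46 (-1.54 to -1.38), which binds the RNA, and SRPRA at -1.40 (-1.53 to -1.27), the alpha subunit of the receptor. SRP9 and SRP14, which bind the Alu end of the RNA together, both had 0.93, just under the size rule. Of 11 proteins of RNase P and RNase MRP, 1 was higher, RPP21 at 1.10, and 0 were lower, with a median of 0.11. Outside the naming rule, RPP21 and some other genes past the size rule are named here and below after their values were seen. The largest values among the more abundant proteins of RNase P were 0.56 (0.35 to 0.77) for RPP30 and 0.51 (0.37 to 0.64) for RPP14.

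The proteins of the bodies that NEAT1 and MALAT1 mark were divided. Of 12 paraspeckle proteins 0 were higher and 2 were lower in the OVCAR3 pair, among them the RNA-binding protein HNRNPM at -1.60 (-1.68 to -1.52). NONO, a core paraspeckle protein that binds NEAT1, had 501 CPM in OVCAR3 mock and 279.5 in OVCAR3 KO, a ratio of -0.84 (-0.90 to -0.79). SFPQ, another paraspeckle protein, named after its value was seen, had 0.77, short of the size rule. Of the 12, 6 lay above 0 and 6 below, with a median of -0.20. NEAT1 was 11.3-fold higher in OVCAR3 KO. Of 12 nuclear speckle proteins 4 were higher and 4 were lower. SRSF2 at 1.25, SRSF3 at 1.00, SON at -1.16, SRRM1 at -1.03 and THRAP3 at -1.29 were among them. SRSF1, a splicing factor, had 1.48 (1.42 to 1.54) and PNN, a splicing cofactor, 1.44 (1.37 to 1.51), whereas RNPS1, which joins the exon junction complex, had 263 CPM in OVCAR3 mock and 92.7 in OVCAR3 KO (log2 interval -1.59 to -1.42).

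The machinery that transcribes the small RNAs also gave no common direction. Of 13 subunits of RNA polymerase III, 1 was higher, POLR3E at 1.31, and 1 was lower in the OVCAR3 pair, with a median of 0.00. POLR3A, the largest subunit, had 120.03 CPM in OVCAR3 mock and 43.1 in OVCAR3 KO, a log2 ratio of -1.48 (-1.61 to -1.35). Of 20 polymerase III transcription factors and related proteins, 1 was higher, BDP1 at 1.91, and 3 were lower, with a median of -0.32. GTF3C1, the largest subunit of the factor TFIIIC, had 215 and 45.2 CPM, a ratio of -2.25 (-2.37 to -2.13). SNAPC2, a subunit of the SNAPc complex at RN7SK, RMRP and RPPH1 type promoters, had -2.04 (-2.33 to -1.79), and BRF2, which acts at the same promoters, had -1.23 (-1.59 to -0.91).

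Neighbouring genes did not share the ratios of the long non-coding RNAs. Of 10 neighbours of MALAT1 and NEAT1, 0 were higher and 4 were lower in the OVCAR3 pair, with a median of -0.68. LTBP3, among the lower ones, had 134.2 CPM in OVCAR3 mock and 52.1 in OVCAR3 KO, a ratio of -1.36 (-1.48 to -1.25), MAP3K11 -1.14 (-1.34 to -0.95) and EHBP1L1 -1.01 (-1.12 to -0.92). Of the 12 genes of the imprinted neighbourhood of KCNQ1OT1, 9 were measured in the OVCAR3 pair, 1 higher and 6 lower, with a median of -1.41. The higher one was SLC22A18AS, at 1.05, and CDKN1C, an inhibitor of the cell cycle, was among the lower ones, at -1.48. CD81 had 212.7 and 53.3 CPM, a ratio of -1.99 (-2.11 to -1.88), and TSSC4 had -1.41 (-1.66 to -1.18). In the SKOV3 pair the medians of these lists were 0.04 and -0.13. Of 8 neighbours of the polymerase III genes 7 were measured, and 0 were past the size rule in the OVCAR3 pair. RPS29, which lies near RN7SL1, had the largest value among them, 0.80 (0.75 to 0.85).

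Among 12 measured long non-coding RNAs also reported in the nucleus, 5 were higher and 0 were lower in the OVCAR3 pair. Their median was 0.77. Over all measured long non-coding RNAs outside the members, 685 of 1079 were higher and 33 were lower in that pair. The median of that class was 1.67, so the list lay below its class. FIRRE had 4.57 CPM in OVCAR3 mock and 16.7 in OVCAR3 KO, a ratio of 1.84 (1.49 to 2.26), and LINC-PINT had 1.73 (1.34 to 2.20). MIAT and FTX, both at 2.16, and DLEU2 at 1.33 were the rest of the 5. MIAT and FTX were below 1 CPM in both SKOV3 libraries. A gene that reaches 1 CPM only in OVCAR3 KO enters these counts because it is high there. TUG1 was more abundant, at 64.0 and 110.8 CPM, and had 0.79 (0.68 to 0.91). LINC00963 had -0.82 (-1.19 to -0.47). The values of TUG1 and LINC00963 were short of the size rule.

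The 9 profiles over the 4 libraries were compared by the distance between log2 levels centred over the libraries, among 9581 genes with at least 10 CPM on average. MALAT1 lay 0.26 log2 units from KCNQ1OT1 and 0.28 from TALAM1, RN7SK lay 0.52 from RPPH1, and RN7SL1 lay 0.53 from RN7SL2. The largest distance among the 9 was 2.02, between RN7SL1 and RMRP. The gene closest to TALAM1 was the mitochondrial gene COX1, at 0.06, with 8181, 6479, 6182 and 38504 CPM in the order above, followed by mitochondrial ND4L at 0.13. TARBP1 was the closest gene to MALAT1 (0.09) and to KCNQ1OT1 (0.19), and LOC100129434 was the closest to NEAT1 (0.17), followed by LENG8 (0.24). LOC100129940 was closest to RN7SL1 (0.19), and RN7SL1 itself was closest to RN7SL2. WASHC1 was closest to RN7SK (0.10), HSPB11 to RMRP (0.16) and LRP5L to RPPH1 (0.16). These distances rest on 4 libraries, of which OVCAR3 KO sets most of the range.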

How the data were processed

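Total RNA of 4 cultures was extracted with Trizol and made into libraries with the NEBNext Ultra II Directional kit, per the labels' protocols. TopHat and the genome build GRCh38 are named per the submitters' processing notes. Not given in the sources used here are the counting tool, the annotation, the strand setting and the handling of reads with several matches. The authors deposited counts of reads for each symbol, whole numbers without normalisation. Each table held 58173 rows with 52402 symbols. The 2687 symbols in several rows were summed, and no member was among them.

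Counts were scaled by TMM factors of edgeR 4.0.16 in R 4.3.3, computed on the 13670 genes that reached a CPM of 1 in 2 or more libraries (between 1.01 and 1.04 in 3 libraries and 0.931 in OVCAR3 KO). Log2 ratios have a prior count of 2. Intervals of ratios and shares are exact 95% Clopper-Pearson bounds of the counts without the prior, and cover counting error only. The steps were tested on a simulated pair at SKOV3 library sizes with 200 genes changed 4-fold. Of these, 100% were recovered and 93.5% lay in the interval. That setting has far fewer changed genes than the 3504 higher and 2390 lower in the OVCAR3 pair, so it does not cover the scaling there. A gene was called higher or lower past 2-fold with CPM of at least 1 in 1 of the libraries compared, and such genes are the measured ones. There was 1 library per group and no test.

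The members and lists were chosen with earlier results of these data known. All 9 members were named, with up to 4 genes per list that had the largest ratio in the OVCAR3 pair at 10 CPM or more, the 2 rows of each copy family with the most counts, and the 3 genes nearest each member in profile. The text names part of these, and a few items are not reported here. Coordinates and gene types come from RefSeq (GRCh38.p14), which matched 85.2% of the symbols, and sequences from GENCODE 29. Alternatives were size factors of DESeq2 1.42.0, upper quartile factors, no factor, scaling without mitochondrial rows or without the members, prior counts of 0.5 and 5, folds of 1.5 and 3, no filter and CPM of at least 5. TMM over all rows, the sum of MALAT1 and TALAM1, and shares without mitochondrial rows were added after seeing the data.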

Additional observations from a re-analysis of the deposited data

Results flagged for a closer look

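For 7 of the 9 RNAs the knockout library lay below the mock library in the SKOV3 pair and above it in the OVCAR3 pair, with both counting intervals away from 0. Each pair has 1 library per group, so the difference between the pairs was not tested. The log2 ratios in the SKOV3 and the OVCAR3 pair were -0.46 and 2.93 for MALAT1, -0.27 and 2.58 for TALAM1, -0.64 and 3.50 for NEAT1, and -0.55 and 3.26 for KCNQ1OT1. They were -1.34 and 3.63 for RN7SL1, -1.74 and 2.99 for RN7SL2, and -0.43 and 2.02 for RPPH1. RN7SK and RMRP had values above 0 in both pairs.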

How the results depend on the processing

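The ratios of the 9 RNAs kept their sign and their side of the size rule in the SKOV3 and OVCAR3 pairs under 8 other scaling and prior settings. RMRP ranged from 1.22 to 1.74, NEAT1 from 3.21 to 3.74 and RN7SL1 from 3.34 to 3.87 in the OVCAR3 pair, and in the SKOV3 pair RN7SL2 ranged from -1.75 to -1.71. Scaling moved all genes of the OVCAR3 pair by -0.21 with DESeq2 size factors, -0.29 with TMM over all rows, -0.11 with no factor and 0.24 with upper quartile factors. The higher and lower calls were then 2817 and 3115, 2594 and 3417, 3103 and 2748, and 4600 and 1674, against 3504 and 2390 with TMM. In OVCAR3 KO over SKOV3 KO they were 3235 and 2927 with DESeq2 size factors, 2889 and 3374 over all rows, and 5131 and 1559 with upper quartile factors, against 3957 and 2267.

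Counts moved mainly with the fold and the filter, by construction. Of the 9 RNAs, 1 was lower in the SKOV3 pair at 3-fold. Between the mock libraries 1 was higher and 7 were lower at 1.5-fold, and 2 were lower at 3-fold. Over all genes, the SKOV3 pair gave 505 higher and 379 lower at 1.5-fold, 13 and 36 at 3-fold, 1097 and 1173 with no filter, 6 and 8 at CPM of at least 5, and 71 higher with a prior count of 5. The OVCAR3 pair gave 3928 lower at 1.5-fold, 939 lower at 3-fold, 8078 higher with no filter and 1412 higher at CPM of at least 5. The mock libraries gave 2727 and 2224 at 1.5-fold, 446 and 174 at 3-fold, 2540 and 2158 with no filter, and 831 and 398 at CPM of at least 5. The knockout libraries gave 3892 lower at 1.5-fold, 2548 higher and 914 lower at 3-fold, 8537 higher with no filter and 1757 higher at CPM of at least 5. Of 166 genes in all 12 lists, 0 were past the rule in the SKOV3 pair, and 19 were higher and 24 lower in the OVCAR3 pair. With DESeq2 size factors the OVCAR3 counts were 15 and 33, with TMM over all rows 14 and 35, and with upper quartile factors 26 and 18, which turns their balance. Of these genes, 2 were higher and 4 were lower in the SKOV3 pair at 1.5-fold, and 2 and 2 with no filter. For the OVCAR3 pair 31 and 38 were past 1.5-fold, 10 and 6 past 3-fold, and 12 were higher at CPM of at least 5. Without mitochondrial rows in the total, the 9 RNAs took 0.216% of SKOV3 mock, 0.151% of SKOV3 KO, 0.122% of OVCAR3 mock and 0.975% of OVCAR3 KO. Leaving out those rows raises the share most where they took the most counts. No single ratio past the size rule changed sign under the scaling and prior settings. The balance of higher and lower calls over all genes of the OVCAR3 pair turned with DESeq2 size factors and with TMM over all rows. The summed RN7SL copies in the SKOV3 pair, at -0.01, ranged from -0.02 to 0.02.

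No paired analysis was possible because each group has 1 library and the groups share a single replicate number; for the same reason no library was left out within a group. The spread between cultures is unknown. Low counts limit RPPH1 most, with 86 in OVCAR3 mock, and rows at 0 are known only to within 3 counts.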
